A study of Mus musculus with 10 samples.

Results

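The chemokine ligand family was followed in RNA from the colorectum of 7-week-old BALB/c mice. Members were all table rows whose symbol is Ccl or Cxcl with a number and at most 1 letter, together with Cx3cl1, Xcl1, Pf4 and Ppbp, which gave 41 genes of 23284 features. The 10 libraries form 5 groups of 2, labelled 29a_4d, 29b_4d, NC-miR_4d, NC-miR_2d and normal. Mice of the first 4 groups drank 2% dextran sodium sulfate (DSS), a sulfated polysaccharide used to injure the colon lining, and received tail-vein injections of a miRNA in super carbonate apatite (sCA), a mineral carrier. The miRNA was miR-29a in 29a_4d, miR-29b in 29b_4d and a negative control (NC-miR) in NC-miR_4d and NC-miR_2d. Tissue was taken on day 4, or on day 2 for NC-miR_2d. Injections on days 1, 2 and 3 are given for every injected group, NC-miR_2d included, although its tissue is dated to day 2. Normal mice were untreated and examined on day 0, so DSS, injections and day cannot be told apart in any comparison with them. Between NC-miR_4d and NC-miR_2d, time on DSS and injections received may differ together and cannot be told apart either. Labels do not say whether the 2 libraries of a group came from separate animals, and p-values then measure only the spread between these libraries.

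Chemokines are small secreted proteins that direct the movement of leukocytes by binding G-protein-coupled receptors on the moving cell. Inducible members are made at sites of injury and draw in monocytes, neutrophils or activated T cells. Homeostatic members, such as Ccl25 and Ccl28 in the gut or Ccl19, Ccl21a and Cxcl13 in lymphoid tissue, guide resident lymphocytes. Because whole tissue was sequenced, fewer cells of a type and less RNA per cell cannot be told apart.

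The 3p arms of miR-29a and miR-29b share their seed, the stretch through which a miRNA pairs with its targets. The labels do not name the arm, so the 3p arms of RefSeq (GRCm38.p6) are printed here for comparison, 5′ to 3′, with bases 2 to 8 in capitals.
mmu-miR-29a-3p: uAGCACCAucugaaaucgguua
mmu-miR-29b-3p: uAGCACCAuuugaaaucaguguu
The first is encoded by Mir29a at chr6:31062673-31062694 (minus strand). The second is encoded by both Mir29b-1, at chr6:31063025-31063047 (minus strand), and Mir29b-2, at chr1:195037091-195037113 (plus strand). The 7 letters that pair with this seed, TGGTGCT, were searched in the annotated 3′ UTRs of the family (GENCODE M21, mm10). They occurred in 2 of 37 ligands with a 3′ UTR, against 13.1% of 20940 genes. The median 3′ UTR was 644 bases long in the ligands, against 956 bases over all genes. Ccl28, an epithelial chemokine for IgA plasma cells, held 2 matches and Cxcl9, an interferon-gamma-induced T cell attractant, held 1. They are shown with 10 bases on each side, the match in capitals.
Ccl28, UTR base 1271: gccaagtaagTGGTGCTtagaggtttg
Ccl28, UTR base 2802: cttcatcctgTGGTGCTcctgggaagc
Cxcl9, UTR base 496: gtctcagagaTGGTGCTaatggttttg
A match of letters is a description of the sequence, and pairing was not measured.

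The deposited numbers are log2 values relative to a baseline of each gene, with low values raised to a floor (the lowest value of a gene, shared by 2 or more libraries). Of the 41 ligands, 11 lay at the floor in all 10 libraries. These were Ccl1, Ccl21b, Ccl21c, Ccl26, Ccl27b, Cxcl2, Cxcl3, Cxcl5, Cxcl15, Cxcl17 and Ppbp. Another 22 were above it in all 10 libraries, 5 were tested but reached it in some (Ccl22, Ccl27a, Cxcl9, Cxcl10 and Cxcl11), and 3 were above it too rarely to be tested (Ccl3, Ccl4 and Cxcl1). The test needed both libraries of at least 1 group above the floor, which 27 ligands and 13051 features met. Cxcl9 and Cxcl11 met it through NC-miR_2d alone and had to differ there.

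**Figure D1:**
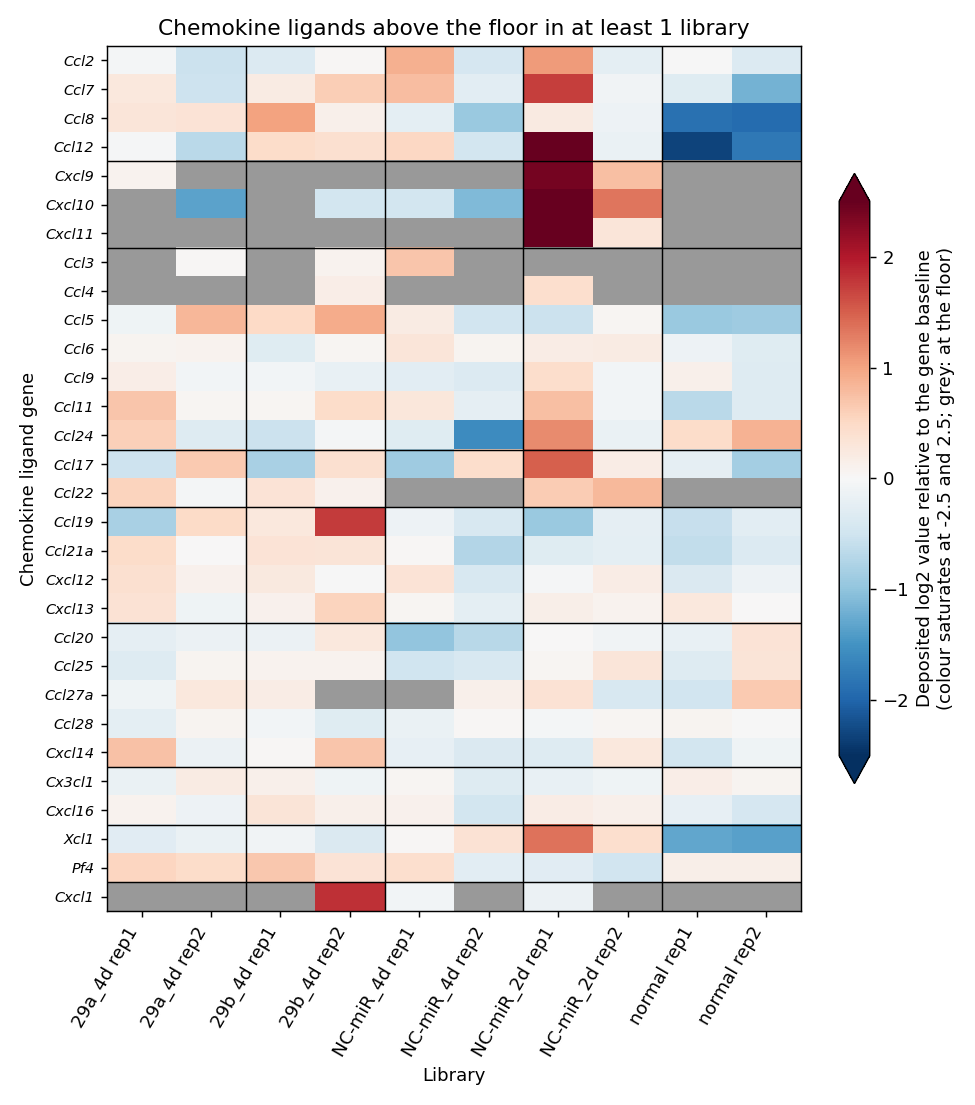
Deposited log2 values of the 30 chemokine ligands above the floor in at least 1 library (rows, grouped by receptor and role) in each of the 10 libraries (columns, 2 per group). Grey cells were at the floor. The darkest red cells are in NC-miR_2d replicate 1, and the 2 normal libraries are blue for Ccl8, Ccl12 and Xcl1.

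Differences between libraries recurred at exact values, as they do when 2 libraries hold the same number of fragments of a gene. From these the smallest whole numbers that fit all 10 libraries were recovered for 72.7% of the 12133 features never at the floor. A true count may be a whole multiple of the recovered number, and the intervals given here hold only if it is not. Among the ligands this gave recovered counts for 17, some of them low. Xcl1 had 3 to 24 fragments per library, Ccl17 had 3 to 25, Ccl12 had 6 to 311, Ccl19 had 7 to 44 and Ccl5 had 13 to 41. Ccl8, with 49 to 357, Ccl11, with 99 to 343, and the other abundant ligands were counted more precisely. Per unit of the deposited scale, NC-miR_2d replicate 1 held 1.53 times the fragments of NC-miR_4d replicate 1, the shallowest library. A value at the floor is not an absence of transcript. For Cxcl10 the floor stood at 6.29 to 9.66 fragments, and for Ccl22, a dendritic cell chemokine, at 11.5 to 17.4, depending on the library. Intervals on these counts are exact 95% Poisson intervals and cover counting error only.

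Ccl8, listed here with Ccl2, Ccl7 and Ccl12, lay above normal in every DSS library and passed the test in 3 of the 4 DSS groups. No other ligand passed in more than 1 of these groups. Ccl8 draws leukocytes to inflamed tissue and lies in a cluster on chromosome 11 (82115185 to 82116799) beside Ccl2, Ccl7, Ccl11, Ccl12 and Ccl1. Which receptor or cell type it acted on was not measured. Its log2 values were 0.31 and 0.33 in 29a_4d, 1.00 and 0.12 in 29b_4d, -0.25 and -0.93 in NC-miR_4d, and 0.23 and -0.13 in NC-miR_2d, against -1.86 and -1.91 in normal. The 8 DSS libraries all lay above both normal libraries, and within DSS the NC-miR_4d pair was lowest. In fragments these were 181 and 204 in 29a_4d, 357 and 168 in 29b_4d, 120 and 99 in NC-miR_4d, and 266 and 165 in NC-miR_2d, against 49 and 49 in normal. A count of 49 has an interval of 36.3 to 64.8 fragments, and the lowest DSS count, 99, has one of 80.5 to 121.

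Against normal, Ccl8 rose 4.62-fold in 29a_4d (log2 difference 2.21 ± 0.31 SE, n = 2 libraries per group, limma adjusted p = 0.0338) and 5.45-fold in 29b_4d (2.45 ± 0.31, adjusted p = 0.0226). It rose 3.83-fold in NC-miR_2d (1.94 ± 0.31, adjusted p = 0.0270). In NC-miR_4d the difference was 1.30 ± 0.31 and did not pass (adjusted p = 0.121). Ccl8 was the only ligand called in 29a_4d, 1 of 27 where 0.421% of all features were called, and the only one in 29b_4d, where 0.490% were called. Groups did not overlap and 29a_4d was higher than normal for 11 of 27 ligands, against 22.6% of features, and lower for 0, against 23.2%. For 29b_4d the counts were 13 higher, against 22.9%, and 2 lower, against 22.3%. With the 4 DSS groups averaged, Ccl8 rose 3.93-fold (1.97 ± 0.24, adjusted p = 0.0112), and 2 of 27 ligands passed beside 1.42% of all features. The direction did not change when any 1 library was left out, but the calls did. Without normal replicate 1 or 2 the adjusted p of the averaged difference was 0.107 or 0.167, while the difference was 2.00 or 1.94. The call in 29b_4d was lost without either normal library (0.107 or 0.189) and without 29b_4d replicate 1 (0.0840). The call in NC-miR_2d was lost without either normal library (0.138 or 0.209), without NC-miR_2d replicate 1 (0.189) and without either 29a_4d library (0.0581), and was kept in 5 of 10 such fits. The call in 29a_4d was lost without either 29a_4d library (0.186 or 0.199), either normal library (0.178 or 0.253) or either NC-miR_2d library (0.0580), and was kept in 4 of 10.

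The ligands listed with Ccl8 differed from it in how far their libraries spread. Ccl12, a mouse monocyte chemokine close to Ccl2, had log2 values of -0.03 and -0.67 in 29a_4d, 0.46 and 0.39 in 29b_4d, 0.51 and -0.45 in NC-miR_4d, and 3.03 and -0.16 in NC-miR_2d, against -2.31 and -1.78 in normal. All 8 DSS libraries lay above normal, and 1 of them, NC-miR_2d replicate 1, held 311 fragments against 27 in its replicate and 6 and 9 in normal. The averaged difference was 2.43 ± 0.67 and did not pass (limma adjusted p = 0.128). Ccl7, which binds several monocyte receptors, had 0.26 and -0.53 in 29a_4d, 0.21 and 0.62 in 29b_4d, 0.77 and -0.27 in NC-miR_4d, and 1.73 and -0.09 in NC-miR_2d, against -0.31 and -1.19 in normal. The Ccl7 difference was 1.57 ± 0.61 for NC-miR_2d against normal (adjusted p = 0.281) and 1.08 ± 0.48 for the average of the 4 DSS groups (adjusted p = 0.308). Ccl2, the chief monocyte chemokine, had -0.05 and -0.54 in 29a_4d, -0.34 and 0.03 in 29b_4d, 0.89 and -0.42 in NC-miR_4d, and 1.06 and -0.24 in NC-miR_2d, against -0.01 and -0.33 in normal. For Ccl2 NC-miR_2d and normal overlapped (0.59 ± 0.50, adjusted p = 0.632). Listed monocyte and macrophage markers (9 tested of 9 found) had medians of -0.17 to 0.54 in the 8 DSS libraries relative to the normal mean, and their part in the Ccl8 difference was not tested.

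The windows before the transcription starts of Ccl8 and Ccl12 are printed because these neighbours had all 8 DSS libraries above both normal libraries. Ccl11, of the same cluster, also did and is not printed. Capitals mark TATAAA, the TATA box letters. The windows are the 250 bases before the start from RefSeq (GRCm38.p6), Ccl8 at chr11:82114935-82115184 (plus strand) and Ccl12 at chr11:82101595-82101844 (plus strand).
Ccl8: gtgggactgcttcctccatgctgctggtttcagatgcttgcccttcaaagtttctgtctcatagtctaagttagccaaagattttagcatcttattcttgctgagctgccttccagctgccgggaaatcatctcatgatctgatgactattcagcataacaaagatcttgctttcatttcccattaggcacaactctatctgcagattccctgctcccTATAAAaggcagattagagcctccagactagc
Ccl12: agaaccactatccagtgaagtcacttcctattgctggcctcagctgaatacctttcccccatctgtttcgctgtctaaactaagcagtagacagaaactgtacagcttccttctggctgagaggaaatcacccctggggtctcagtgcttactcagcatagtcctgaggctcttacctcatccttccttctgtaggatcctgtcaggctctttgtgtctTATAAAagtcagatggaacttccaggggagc
With 0 as the first base of the transcript, TATAAA began at -32 in Ccl8 and at -31 in Ccl12. Searched on both strands from 250 bases before to 50 bases after the start, it occurred in any window of 11 of the 29 ligands with a window, against 15.7% of 27025 genes counted in the same way. Also searched on both strands were the interferon-stimulated response element (GAAA, any 2 bases, GAAA), the interferon-gamma activated site (TTC, any 3 bases, GAA) and a kappaB pattern (GGG, any 3 bases, TTCC), and neither window held these letters.

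Xcl1, a chemokine made mainly by T and NK cells and a ligand of Xcr1 on cross-presenting dendritic cells, was the second ligand called. It lies on chromosome 1 (164931644 to 164935522). Its log2 values were -0.27 and -0.16 in 29a_4d, -0.08 and -0.36 in 29b_4d, 0.02 and 0.36 in NC-miR_4d, and 1.35 and 0.42 in NC-miR_2d, against -1.30 and -1.35 in normal. The 8 DSS libraries all lay above normal, with NC-miR_2d highest. Xcl1 rose 4.62-fold in NC-miR_2d (log2 difference 2.21 ± 0.28, limma adjusted p = 0.0102), and with the 4 DSS groups averaged it rose 2.80-fold (1.48 ± 0.22, adjusted p = 0.0205). It missed the threshold in NC-miR_4d (1.51 ± 0.28, adjusted p = 0.0745), in 29a_4d (1.11 ± 0.28, adjusted p = 0.201) and in 29b_4d (1.11 ± 0.28, adjusted p = 0.136).

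The recovered Xcl1 counts were low. They were 5 and 6 in 29a_4d, 7 and 5 in 29b_4d, 6 and 10 in NC-miR_4d, and 24 and 10 in NC-miR_2d, against 3 and 3 in normal. A count of 3 has an interval of 0.619 to 8.77 fragments, which overlaps the interval of each DSS library except NC-miR_2d replicate 1, with 15.4 to 35.7. Equal counts in the normal pair leave almost no spread there on the log2 scale. With voom, which weights values by their counts, the averaged Xcl1 difference was 1.37 and did not pass (adjusted p = 0.111), where 1 of 16 ligands and 2.31% of features did. In NC-miR_2d it was 2.07 (adjusted p = 0.0496), where 2 of 16 ligands and 1.67% of features passed. Leaving out either normal library also ended both calls, with adjusted p of 0.0764 and 0.113 for NC-miR_2d and of 0.151 and 0.236 for the average. The receptor Xcr1 lay at the floor in all 10 libraries. T and NK cell markers (4 tested of 9 found, with Cd8a, Cd8b1 and Klrb1c at the floor in all) had medians of -0.11 to 0.60 in the DSS libraries relative to the normal mean, and their part was not tested.

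**Figure D2:**
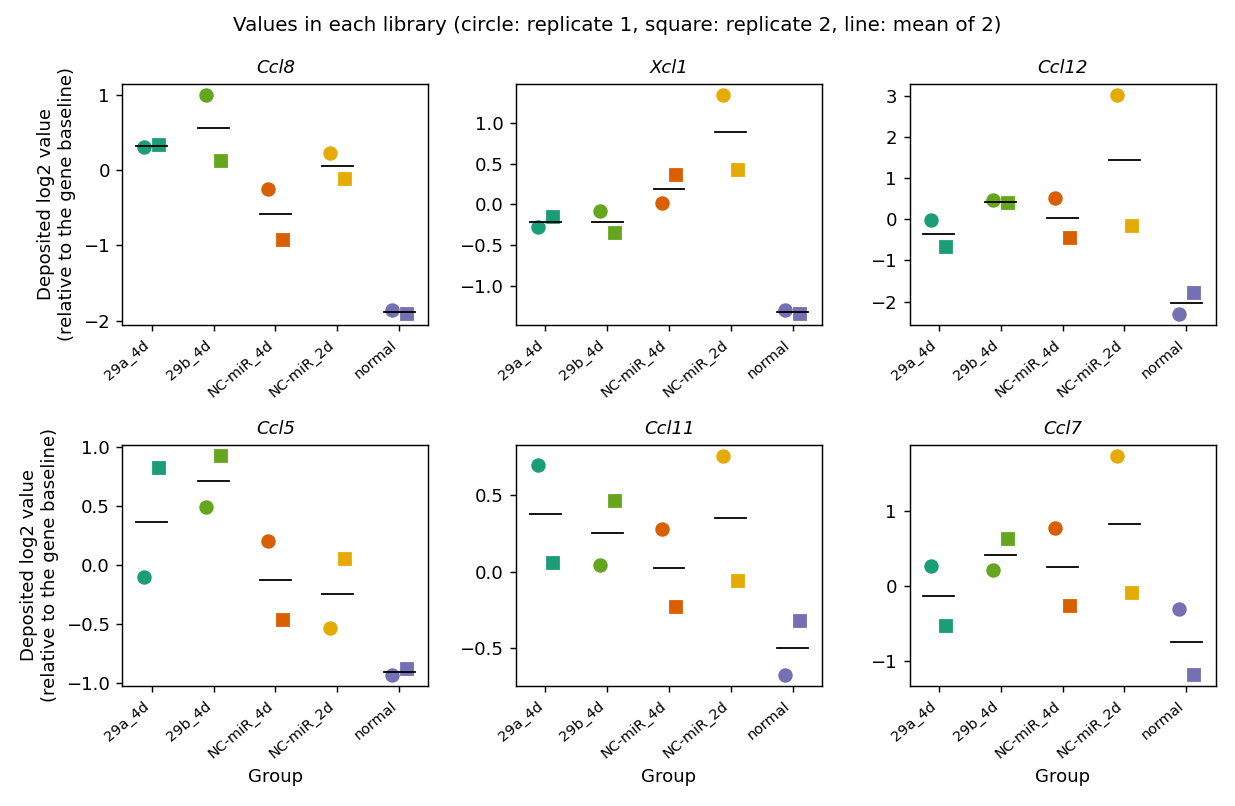
Deposited log2 values (y axis, relative to the gene baseline) of Ccl8, Xcl1, Ccl12, Ccl5, Ccl11 and Ccl7 by group (x axis). Each point is a library and each line the mean of 2. For the first 5 genes all 8 DSS libraries lie above both normal libraries, and for Ccl7 7 of 8 do.

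Apart from Ccl8, Xcl1 and Ccl12, the ligands Ccl5 and Ccl11 had all 8 DSS libraries above both normal libraries. This made 5 of 27 ligands, against 6.84% of all features, and no ligand had all 8 below, against 5.92%. Ccl5, a T cell and macrophage product that attracts T cells and monocytes, had log2 values of -0.10 and 0.82 in 29a_4d, 0.49 and 0.92 in 29b_4d, 0.21 and -0.47 in NC-miR_4d, and -0.53 and 0.05 in NC-miR_2d, against -0.93 and -0.88 in normal. Its group means were highest in the miR-29 groups, but 29a_4d overlapped NC-miR_4d and NC-miR_2d. The averaged difference was 1.08 ± 0.28 (limma adjusted p = 0.107), with 1.61 ± 0.35 in 29b_4d (adjusted p = 0.102). Ccl11, the eosinophil attractant eotaxin, had 0.70 and 0.05 in 29a_4d, 0.04 and 0.46 in 29b_4d, 0.28 and -0.23 in NC-miR_4d, and 0.76 and -0.06 in NC-miR_2d, against -0.68 and -0.32 in normal. Its averaged difference was 0.75 ± 0.26 (adjusted p = 0.220).

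The Cxcr3 ligands Cxcl9, Cxcl10 and Cxcl11, interferon-induced attractants of activated T cells, were at or near the floor except in NC-miR_2d. They are neighbours on chromosome 5 (92321331 to 92363296), and Cxcl11 is annotated as a transcribed pseudogene in the reference strain. Cxcl10 stood 258-fold above its floor in NC-miR_2d replicate 1 and 7.27-fold in replicate 2, while both normal libraries lay at the floor. In fragments this was 2493 and 57 in NC-miR_2d. On day 4 it was 2.07-fold and 1.36-fold above the floor in NC-miR_4d, 2.06-fold in 29b_4d replicate 2 and 1.12-fold in 29a_4d replicate 2, and at the floor in replicate 1 of both miR-29 groups. The day 4 libraries above the floor held 8 to 14 fragments, against a floor of 6.29 to 8.10 in those libraries.

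Cxcl9 stood 6.92-fold and 2.15-fold above its floor in NC-miR_2d and 1.34-fold in 29a_4d replicate 1, and all other libraries lay at it. Cxcl11 stood 11.7-fold and 1.49-fold above its floor in NC-miR_2d and was at the floor in the other 8 libraries. For each gene replicate 1 of NC-miR_2d was the higher. Against normal, at the floor, the differences were at least 5.39 ± 1.30 for Cxcl10 (limma adjusted p = 0.111), at least 1.90 ± 0.43 for Cxcl9 (adjusted p = 0.0935) and at least 2.01 ± 0.73 for Cxcl11 (adjusted p = 0.248). None passed. Without NC-miR_2d replicate 2 the Cxcl10 difference was at least 7.94, and without replicate 1 it was at least 2.83. These fits leave 1 library in the group, which is assumed to vary like the other groups, so no call is read from them. Libraries at the floor hold the same value by construction, so groups at the floor add almost no spread to the errors of these 3 ligands. The receptor Cxcr3 lay at the floor in all 10 libraries, as did Ifng.

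**Figure D3:**
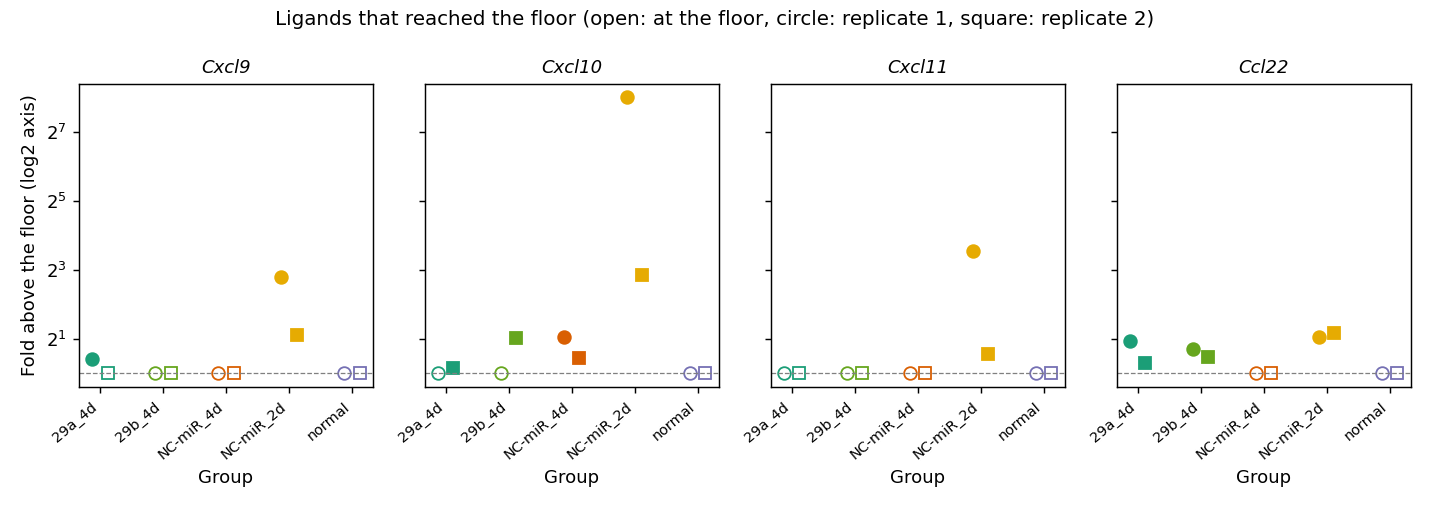
Fold above the gene's floor (y axis, log2 scale) for Cxcl9, Cxcl10, Cxcl11 and Ccl22 by group (x axis). Open symbols were at the floor. NC-miR_2d replicate 1 reaches 258-fold for Cxcl10, while both normal libraries are at the floor for all 4 genes.

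The promoters of Cxcl10 and Cxcl9 are shown because these neighbours differ in exact matches to the patterns searched, while both were highest in NC-miR_2d. Capitals mark matches to the 3 inducible patterns and TATAAA, in the 250 bases before the start, Cxcl10 at chr5:92348890-92349139 (minus strand) and Cxcl9 at chr5:92328080-92328329 (minus strand).
Cxcl10: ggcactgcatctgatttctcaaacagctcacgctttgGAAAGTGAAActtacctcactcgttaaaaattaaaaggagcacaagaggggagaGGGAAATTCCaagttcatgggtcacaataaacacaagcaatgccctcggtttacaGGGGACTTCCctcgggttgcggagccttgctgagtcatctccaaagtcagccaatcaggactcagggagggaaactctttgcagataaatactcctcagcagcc
Cxcl9: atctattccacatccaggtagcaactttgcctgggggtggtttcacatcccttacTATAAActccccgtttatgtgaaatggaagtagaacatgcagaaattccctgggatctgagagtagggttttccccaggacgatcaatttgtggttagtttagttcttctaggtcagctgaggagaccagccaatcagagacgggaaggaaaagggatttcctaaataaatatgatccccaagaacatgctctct
The Cxcl10 window held GAAAGTGAAA, a match to the interferon-stimulated response element letters, at -213, and kappaB letters at -159 and -104. The response element letters occurred in 3 of 29 ligands (Ccl19, Cxcl10 and Cxcl14), against 3.99% of 27025 genes. The kappaB letters occurred in 7 of 29, against 6.31%, and 4 of these ligands (Ccl1, Cxcl1, Cxcl2 and Cxcl3) were at the floor throughout or too rarely above it to be tested. The interferon-gamma site letters occurred in 2 of 29 (Ccl17 and Cxcl14), against 9.55%. Of the patterns searched, the Cxcl9 window held TATAAA only, at -195, and near matches were not counted.

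Ligands listed here for Ccr4 and Ccr8 (Ccl22, Ccl17 and Ccl1) were read next. Ccl8 was listed only with Ccl2, Ccl7 and Ccl12, and other receptors that it may bind were not considered. Ccl22, a product of dendritic cells and macrophages that attracts regulatory and type 2 helper T cells, had log2 values of 0.57 and -0.05 in 29a_4d, 0.34 and 0.11 in 29b_4d, and 0.64 and 0.80 in NC-miR_2d, and lay at the floor in both NC-miR_4d and both normal libraries. This was 22 and 16 fragments in 29a_4d, 23 and 17 in 29b_4d, and 36 and 32 in NC-miR_2d. Above normal, at the floor, the difference was at least 1.07 ± 0.20 in NC-miR_2d (limma adjusted p = 0.0504), at least 0.61 ± 0.20 in 29a_4d (adjusted p = 0.322) and at least 0.57 ± 0.20 in 29b_4d (adjusted p = 0.232). Libraries at the floor hold the same value by construction, so the 2 groups at the floor add almost no spread to these errors. Ccl17, its partner at Ccr4, had -0.52 and 0.66 in 29a_4d, -0.81 and 0.40 in 29b_4d, -0.90 and 0.44 in NC-miR_4d, and 1.49 and 0.18 in NC-miR_2d, against -0.22 and -0.86 in normal. NC-miR_2d did not overlap normal (1.37 ± 0.65, adjusted p = 0.367). Ccl1, a Ccr8 ligand, was at the floor throughout.

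For NC-miR_2d against normal as a whole, Xcl1 and Ccl8 were the 2 of 27 ligands called, beside 1.22% of all features. Groups did not overlap and NC-miR_2d was higher for 15 of 27 ligands, against 23.2% of all features, and lower for 2 (Pf4 and Cx3cl1), against 23.7%. Over the 22 ligands never at the floor these numbers were 11 and 2. The median log2 difference was 0.42 for the 27 ligands and 0.30 for the 22 never at the floor, with -0.06 over all features. NC-miR_2d replicate 1 held the highest value of 11 of 27 ligands, against 9.95% of features. Cxcl9 and Cxcl11 are among the 11 and were tested only through NC-miR_2d, so they had to be high in that group. That library also stood apart in neutrophil markers. Their median (3 tested of 8 found, with Camp, Elane and Mpo at the floor in all) lay 3.71 above the normal mean there, beside 1.28 in its replicate and 0.03 to 2.61 on day 4. The part of neutrophils in these ligand values was not tested.

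In every group the median absolute gap between the 2 libraries was wider for the 27 ligands than for all features. It was 0.39 for ligands and 0.15 for all features in 29a_4d, 0.34 and 0.22 in 29b_4d, 0.51 and 0.20 in NC-miR_4d, 0.58 and 0.18 in NC-miR_2d, and 0.26 and 0.18 in normal. The widest single gap was 5.11, for Cxcl10 in NC-miR_2d.

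**Figure D4:**
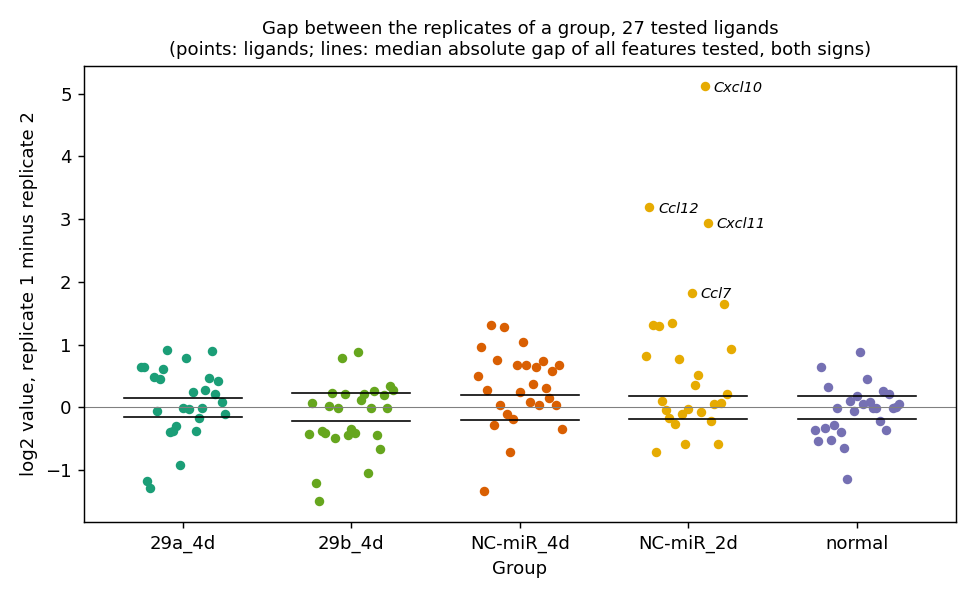
Log2 value of replicate 1 minus replicate 2 (y axis) for the 27 tested ligands in each group (x axis). Lines give the median absolute gap of all features, drawn with both signs. In NC-miR_2d Cxcl10, Ccl12, Cxcl11 and Ccl7 lie far above 0, up to 5.11 for Cxcl10.

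On day 4 the control-injected mice showed no ligand past the threshold. In NC-miR_4d against normal, 0 of 27 ligands were called with limma, where 0.383% of all features were, and 6 had an unadjusted p under 0.05, against 15.2%. With voom 0 of 16 ligands were called, beside 0.623% of features. Groups did not overlap for 8 ligands that were higher, against 23.4% of features, and for 3 that were lower (Ccl20, Ccl24 and Ccl25), against 23.0%. Ccl20, an epithelial ligand of Ccr6 that attracts dendritic cells and lymphocytes, had log2 values of -0.99 and -0.70 in NC-miR_4d and 0.01 and -0.08 in NC-miR_2d, against -0.19 and 0.34 in normal (-0.92 ± 0.21, limma adjusted p = 0.119). Ccl24, an eosinophil attractant, had 0.59 and -0.33 in 29a_4d, -0.54 and -0.06 in 29b_4d, -0.30 and -1.57 in NC-miR_4d, and 1.18 and -0.16 in NC-miR_2d, against 0.46 and 0.86 in normal (-1.60 ± 0.54, adjusted p = 0.228). NC-miR_4d replicate 2 held the lowest value of 7 of the 22 ligands never at the floor, against 12.8% of such features. Replicate 1 stood apart in squamous epithelial genes, with a median 5.51 above the normal mean, against -0.20 to 0.54 in the other DSS libraries. This median rested on 3 tested genes of 10 found, with Dsg3, Ivl, Krt4 and Trp63 at the floor in all libraries. The part of squamous genes in the ligand values was not tested. Without replicate 1 no ligand was called in this comparison either.

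In NC-miR_4d against NC-miR_2d, day 4 against day 2, ligands were mostly lower but none passed. With each library's floor constant subtracted, 24 of 27 ligands were lower and 3 higher, where 49.0% and 50.4% of all features were. On the deposited values 4 of 27 were higher, and of the 22 never at the floor 18 were lower and 4 higher. Cxcl9, Cxcl10, Cxcl11 and Ccl22 had the lowest differences among those near the floor, for example -4.67 ± 1.30 for Cxcl10 (limma adjusted p = 0.535) and at most -1.10 ± 0.20 for Ccl22 (adjusted p = 0.388). Groups did not overlap for 12 ligands that were lower, against 17.4% of features, and for 0 that were higher. Cxcl9 and Cxcl11 are among the 12 and were tested only through NC-miR_2d. Over the 22 ligands never at the floor the count was 8. No ligand was called, with 0.0153% of features, and 9 had an unadjusted p under 0.05, against 6.41%, or 5 of the 22 never at the floor. With voom 0 of 16 were called, beside 0.0227%. When each library was left out in turn, the direction held for some ligands and not for others. The highest difference over these fits was 0.48 for Ccl2, 0.35 for Ccl7, 0.19 for Ccl12 and 0.08 for Ccl11. NC-miR_2d replicate 1 was the highest library for each of these. For Ccl8, Ccl20, Ccl22 and Cxcl10 the highest difference was -0.30, -0.67, -1.02 and -2.12, so these stayed lower on day 4. Each such fit leaves a group with 1 library, so no call is read from it.

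The miR-29 groups ask whether ligands differed from the day 4 control injection. For 29a_4d, 29b_4d and their mean against NC-miR_4d, limma called 0 of 27 ligands, and with an unadjusted p under 0.05 there were 4, 7 and 4, against 7.63%, 12.5% and 10.8% of features. All features gave 0.00%, 0.00% and 0.00766% called in these comparisons. With voom 0 of 16 ligands were called in each, beside 0.00%, 0.0113% and 0.00% of features. Groups did not overlap and 29a_4d was higher for 7 ligands, against 20.4% of features, and lower for 3, against 21.4%. For 29b_4d the counts were 11 higher, against 21.7%, and 2 lower, against 20.2%. With all 4 miR-29 libraries set against NC-miR_4d they were 6 higher, against 9.89%, and 2 lower, against 10.9%. These comparisons share the 2 NC-miR_4d libraries. Ccl20 had -0.22 and -0.15 in 29a_4d and -0.15 and 0.26 in 29b_4d, against -0.99 and -0.70 in NC-miR_4d, and the groups did not overlap. The difference of the miR-29 mean was 0.78 ± 0.18 (limma adjusted p = 0.365). For Ccl8, whose values stand above, it was 1.03 ± 0.27 (adjusted p = 0.385), and for Ccl22, at the floor in NC-miR_4d, it was at least 0.62 ± 0.17 (adjusted p = 0.404). Ccl21a, a lymphatic and stromal ligand of Ccr7, had 0.46 and 0.00 in 29a_4d and 0.34 and 0.32 in 29b_4d, against 0.02 and -0.74 in NC-miR_4d (0.64 ± 0.22, adjusted p = 0.421), and 29a_4d overlapped the control. It had -0.30 and -0.25 in NC-miR_2d, against -0.62 and -0.34 in normal, and 29b_4d lay 0.81 ± 0.25 above normal (adjusted p = 0.198). Reads of Ccl21a, Ccl21b and Ccl21c, near-identical copies, could have been split between them.

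The ligands with a seed match did not pass. Ccl28 had -0.24 and 0.06 in 29a_4d and -0.08 and -0.30 in 29b_4d, against -0.17 and 0.02 in NC-miR_4d (-0.07 ± 0.13, limma adjusted p = 0.865). Cxcl9 was at the floor in 3 of the 4 miR-29 libraries and in both NC-miR_4d libraries. Between the miRNAs, 29a_4d against 29b_4d, limma called 0 of 27 ligands where 0.00% of features were called, and 0 had an unadjusted p under 0.05, against 7.43% of features. Voom called 0 of 16, beside 0.00%. Groups did not overlap and 29a_4d was higher for 1 ligand, against 18.8% of features, and lower for 4, against 20.4%. The largest difference was that of Ccl19, the other Ccr7 ligand, with -0.81 and 0.48 in 29a_4d, against 0.26 and 1.76 in 29b_4d (-1.18 ± 0.54, adjusted p = 0.679). It had -0.13 and -0.40 in NC-miR_4d and -0.94 and -0.22 in NC-miR_2d, against -0.58 and -0.26 in normal, so 29b_4d replicate 2 was the highest library. The 29a_4d difference rested on 7 and 19 fragments in 29a_4d, against 18 and 44 in 29b_4d.

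**Figure D5:**
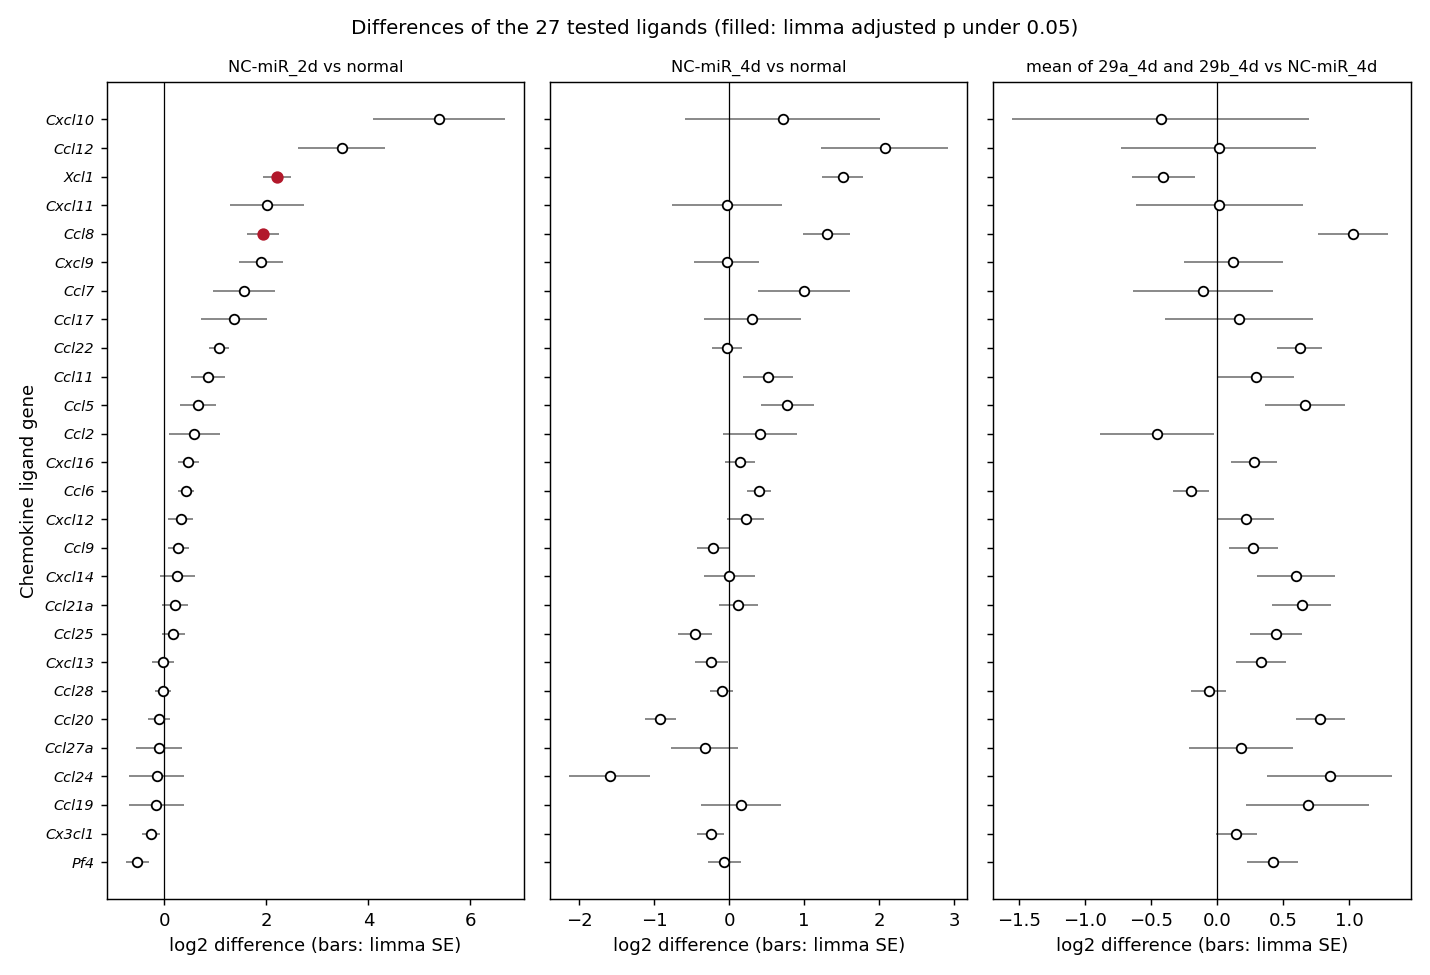
Log2 differences with limma standard errors (x axes) of the 27 tested ligands (rows) for NC-miR_2d against normal, NC-miR_4d against normal and the mean of 29a_4d and 29b_4d against NC-miR_4d. Filled points passed at an adjusted p under 0.05, which only Ccl8 and Xcl1 did, in the first panel.

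Across all 5 groups at once, limma's F test called 0 of 27 ligands, where 0.375% of features were called, and 10 had an unadjusted p under 0.05, against 14.4%. Ccl8 came nearest (adjusted p = 0.0532), followed by Xcl1 (0.0713) and Ccl22 (0.133). With voom Ccl8 passed this test (adjusted p = 0.0429), 1 of 16 ligands beside 0.804% of features.

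Most of the remaining homeostatic ligands spanned narrow ranges. Cxcl12, the stromal ligand of Cxcr4, ranged from -0.40 to 0.40 over the 10 libraries, and Cxcl13, the follicle chemokine for B cells, from -0.25 to 0.56. Ccl25, a gut ligand of Ccr9, had -0.32 and 0.08 in 29a_4d, 0.09 and 0.10 in 29b_4d, -0.51 and -0.40 in NC-miR_4d, and 0.04 and 0.31 in NC-miR_2d, against -0.32 and 0.33 in normal. Its NC-miR_4d libraries were the lowest, and 29b_4d exceeded them by 0.55 (limma adjusted p = 0.390). Over the 10 libraries Ccl28 ranged from -0.30 to 0.08. The membrane-bound Cx3cl1 ranged from -0.32 to 0.21. Cxcl14, an epithelial and stromal chemokine, ranged from -0.46 to 0.74. Ccl27a, a skin-type epithelial chemokine with a near-identical copy in Ccl27b, ranged up to 0.66 and was at the floor in 2 libraries.

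A few other ligands had groups that did not overlap in at least 1 comparison, at small sizes that did not pass. Ccl6, a mouse myeloid chemokine that binds Ccr1, had log2 values of 0.08 and 0.09 in 29a_4d, -0.30 and 0.04 in 29b_4d, 0.30 and 0.06 in NC-miR_4d, and 0.19 and 0.21 in NC-miR_2d, against -0.12 and -0.31 in normal. NC-miR_2d exceeded normal by 0.42 ± 0.16 (limma adjusted p = 0.264). Ccl9, another Ccr1 ligand, had 0.17 and -0.07 in 29a_4d, -0.07 and -0.19 in 29b_4d, -0.27 and -0.35 in NC-miR_4d, and 0.44 and -0.07 in NC-miR_2d, against 0.13 and -0.32 in normal. NC-miR_4d did not overlap NC-miR_2d (-0.49, adjusted p = 0.771). Cxcl16, the ligand of Cxcr6 on T cells, had 0.09 and -0.13 in 29a_4d, 0.32 and 0.12 in 29b_4d, 0.11 and -0.46 in NC-miR_4d, and 0.19 and 0.12 in NC-miR_2d, against -0.21 and -0.42 in normal. NC-miR_2d exceeded normal by 0.47 ± 0.20 (adjusted p = 0.319). Pf4, stored in platelet granules, had 0.54 and 0.45 in 29a_4d, 0.67 and 0.33 in 29b_4d, 0.42 and -0.26 in NC-miR_4d, and -0.28 and -0.48 in NC-miR_2d, against 0.15 and 0.15 in normal. Its difference was -0.53 ± 0.22 in NC-miR_2d (adjusted p = 0.315), while 3 of 4 listed platelet genes lay at the floor in all libraries.

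Neutrophil-attracting ligands of Cxcr2 were almost all at the floor. Cxcl2, Cxcl3, Cxcl5, Cxcl15 and Ppbp never left it. Cxcl1 did in 3 libraries, 4.25-fold in 29b_4d replicate 2, 1.15-fold in NC-miR_4d replicate 1 and 1.12-fold in NC-miR_2d replicate 1. Of the macrophage inflammatory proteins, which attract monocytes and T cells, Ccl3 was above the floor in 3 libraries, at most 1.71-fold, and Ccl4 in 2, at most 1.43-fold. Ccl3 and Ccl4 overlap in the annotation.

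Receptors and inducing cytokines were read from lists of 27 and 20 symbols. Of 23 receptor genes found, 9 were at the floor in all libraries (Ccbp2, Ccr1l1, Ccr4, Ccr8, Ccr9, Cxcr1, Cxcr2, Cxcr3 and Xcr1) and 12 were tested. No receptor passed as higher in any comparison, and Cxcr5, the receptor of Cxcl13 on follicular B cells, fell. Its log2 values were 0.45 and 0.13 in 29a_4d, the floor in both 29b_4d libraries, -0.12 and -0.46 in NC-miR_4d, and the floor and 0.30 in NC-miR_2d, against 1.40 and 1.11 in normal. All 8 DSS libraries lay below both normal libraries. With the 4 DSS groups averaged, 3 of the 8 libraries being at the floor, Cxcr5 fell by at least 1.43 ± 0.23 on the log2 scale (limma adjusted p = 0.0245). In 29b_4d, at the floor in both libraries, it fell by at least 1.82 ± 0.29 (limma adjusted p = 0.0486). Libraries at the floor hold the same value by construction, so 29b_4d adds almost no spread to these errors. Alternative fits are not given for Cxcr5. B cell and follicle markers, a list that holds Cxcr5 (7 tested of 8 found), had medians of -2.27 to -0.77 in the DSS libraries relative to the normal mean, and whether the Cxcr5 difference follows the number of B cells was not tested. For its ligand Cxcl13 the averaged difference was -0.02 ± 0.17 (adjusted p = 0.966). Cxcr6, the T cell receptor of Cxcl16, had log2 values of 1.19 and 0.53 in 29a_4d, 0.30 and 0.87 in 29b_4d, the floor and -0.56 in NC-miR_4d, and -0.68 and -0.03 in NC-miR_2d, against -0.56 and the floor in normal. The 4 miR-29 libraries were the highest. The Cxcr6 difference was at least 1.51 ± 0.30 in 29a_4d (adjusted p = 0.110) and at least 1.24 ± 0.30 in 29b_4d (adjusted p = 0.126) against normal. Against NC-miR_4d it was at least 1.52 ± 0.30 in 29a_4d (adjusted p = 0.358) and at least 1.25 ± 0.30 in 29b_4d (adjusted p = 0.336). Ccrl2, an atypical receptor that binds chemerin, had 0.33 and -0.35 in 29a_4d, 0.03 and 0.28 in 29b_4d, -0.06 and -0.69 in NC-miR_4d, and 2.11 and 0.63 in NC-miR_2d, against -0.54 and -0.23 in normal. NC-miR_2d did not overlap normal (1.76 ± 0.45, adjusted p = 0.130).

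Of 20 cytokine genes 12 were at the floor in all libraries, Ifng, Il6, Il17a and Ifnb1 among them, 7 were tested, and 0 were called in any comparison.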

How the data were processed

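RNA sequencing of the mouse colorectum gave 10 libraries, 2 per group, prepared with a stranded mRNA kit per the labels' protocols. TopHat2 2.0.13, Bowtie2 2.2.3, SAMtools 0.1.19, Cuffnorm 2.2.1 and the build mm10 are named in the submitters' processing notes, with no settings. Per the file headers the deposited values are FPKM, yet they are log2 values relative to a gene baseline. Base 2 placed 92.8% of 5676 values on a grid of 6 significant digits, base e 19.6% and base 10 21.8%. Each library carried its own constant (-0.0427 to 0.0331) at the floor. A feature was at the floor in libraries sharing its lowest value, if 2 or more did. Floor constants were subtracted for folds above the floor, for asking whether groups overlapped, and for relative depth and fragments at the floor. They were also subtracted for counting ligands and features lower or higher in NC-miR_4d than in NC-miR_2d.

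A feature was tested if some group had neither library at the floor (13051 of 23284). limma 3.58.1 in R 4.3.3 fitted 5 group means to 10 libraries (5 residual and 3.26 prior degrees of freedom). p-values are 2-sided with Benjamini-Hochberg adjustment over these features, and calls are under 0.05. Errors are limma standard errors, and "at least" marks a difference that libraries at the floor make a lower bound. The limma fit and the voom fit were tested on simulated data.

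The files give no read totals, so total depth is not given in the sources used here. Relative depth and fragment counts came from the deposited log2 values. Between 43 of 45 pairs of libraries the most frequent difference closed to 1 set of offsets, with multipliers up to 2000 tried and a tolerance of 0.002 fragments plus 1e-05 per fragment. Counts are the smallest whole numbers with the observed ratios. They are printed for ligands with at least 6 libraries above the floor and at most 1000 fragments in their lowest library. voom of limma on features with whole counts in all 10 libraries (8826, 16 ligands) was an alternative added after seeing the data, chosen because some ligands had few fragments.

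Named ligands are all rows found by the rule. Those that passed, or had groups apart and an unadjusted p under 0.05, have values per library, and the others ranges. Members, gene lists, motifs and tests were chosen with earlier results of these data known. Other alternatives were no filter, median centring, a raised floor, only the groups compared, a replicate block, robust moderation and leaving out each library. One receptor gene is not reported here.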

Additional observations from a re-analysis of the deposited data

How the results depend on the processing

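Limits. Calls among the ligands rest on 2 libraries per group and, for Xcl1, on low recovered counts. Without either normal library, and with no filter on low values, 0 ligands were called in every comparison. For NC-miR_2d against normal, 2 ligands were called, 1 with the floor raised by 1 (Xcl1) and 1 with only the groups compared (Ccl8). The number of calls, and which ligands they were, changed with the library left out. Each fit without 1 library leaves a group with 1 library, so no call gained in such a fit is read. For 29a_4d against normal, 1 was called, 0 with no filter and 0 with the floor raised, and the call depended on the library left out. For 29b_4d against normal, 1 was called, 0 with no filter, 0 with the floor raised and 0 with only the groups compared. Here too calls depended on the library left out. For the average of the DSS groups, 2 were called, 0 with no filter and 1 by voom on recovered counts (Ccl8), and calls depended on the library left out. The range was 0 to 1 for NC-miR_4d against normal, 0 to 4 for NC-miR_4d against NC-miR_2d (4 beside 0.720% of features), and 0 to 6 for any difference among 5 groups (6 beside 1.25%), where 1 passed with the block and 1 by voom (Ccl8). In the comparisons of miR-29a, miR-29b and their mean with NC-miR_4d, and of miR-29a with miR-29b, 0 ligands were called in every alternative. The differences of Ccl8 and Xcl1 that were called against normal kept their direction in every alternative. Over the called differences the adjusted p of Ccl8 ranged from 0.00744 to 0.254 and that of Xcl1 from 0.000842 to 0.236. The cause of lost calls was not tested.

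Deviations of same-numbered libraries were weakly correlated (r -0.241 to 0.112 over pairs of groups). With 2 libraries per group this cannot show whether the numbers pair the samples. With the replicate number as a block, 2 ligands were called in NC-miR_2d against normal and 2 in the averaged comparison, and among all features 138 instead of 159 and 151 instead of 185. No ligand call was lost with it.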
